A study of Mus musculus with 12 samples.

Results

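The imprinted genes H19, Dlk1, Meg3, Cdkn1c, Peg3, Peg10, Grb10, Plagl1, Mest and Ndn were followed here in the outer layers of the fetal mouse heart. They were matched by symbol, and all 10 were found, each on 1 row, among the 17637 genes of the deposited table. An imprinted gene is transcribed mainly from the copy inherited from 1 parent, often under the control of DNA methylation laid down in the egg or sperm. Many imprinted genes act on fetal growth, are high before birth and decline afterwards, and in the mouse a set of them is known as the imprinted gene network because they vary together across tissues. Its members include growth restrainers such as Cdkn1c and Grb10, the signalling protein Dlk1, the transcription factor Plagl1, and the non-coding RNAs H19 and Meg3.

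All embryos were wild type CD1 mice (an outbred stock) at E16.5, late in gestation. The artery group held mesothelium, the thin epithelial covering, with the tissue just beneath it, peeled from where the great arteries leave the heart. The ventricle group held epicardium and subepicardium peeled from the ventricles. Pools from 6 litters were sequenced, and every litter gave 1 artery library and 1 ventricle library (6 of each). Values are a normalized signal, CPM of a scaled library size, and a difference is that of log2(value + 1), artery minus ventricle, from a limma fit over 14779 genes with the litter as a block.

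Read totals were 6.77 to 18.99 M in artery and 16.45 to 22.11 M in ventricle libraries, with artery 1 and artery 6 the shallowest. Each member had at least 304 reads in every library. Correlations of log values were 0.91 to 0.982 among artery and 0.978 to 0.991 among ventricle libraries. The layers were not pure. The summed signal of 11 epicardial and mesothelial markers was 1700 to 3450 in artery and 2830 to 5370 in ventricle, and that of 10 heart muscle markers was 3360 to 12300 in artery and 10700 to 28100 in ventricle. For 7 smooth muscle markers the sum was 2010 to 3810 in artery and 779 to 1260 in ventricle. Of these lists, 11 of 11, 9 of 10 and 0 of 7 markers were lower in artery, and 6 of 7 smooth muscle markers were higher. None of these markers was at 0 reads in all libraries together. Sums of 4 red cell markers were 1740 to 9260 in artery and 918 to 1880 in ventricle, and those of 4 cartilage markers were 92.3 to 143 in artery and 26.6 to 47.7 in ventricle. The neuron marker sum was low in both, 11.7 to 40.5 in artery and 6.71 to 8.54 in ventricle. The Schwann cell sums did not overlap, at 10.2 to 29.4 in artery and 36.2 to 46.2 in ventricle, and 3 of those 4 markers were lower in artery. Fibroblast sums were 40100 to 66000 in artery and 38700 to 55200 in ventricle (1 of 7 higher), endothelial sums 563 to 1030 in artery and 832 to 1070 in ventricle (1 of 6 lower), and macrophage sums 168 to 237 in artery and 182 to 246 in ventricle (1 of 4 lower). Artery 4 had the highest epicardial sum and the lowest smooth muscle sum of the artery libraries. The members past the threshold are also given without litters 1 and 4. In pooled tissue, fewer cells of a type and less RNA per cell cannot be told apart, and the part of these markers in the results on the members was not tested.

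The members were abundant RNAs in both layers. H19, which is expressed from the maternal copy, ranked 5 among all genes by mean signal and its share of reads was 0.887 ± 0.0438% in artery against 0.967 ± 0.101% in ventricle (SD, n = 6 per tissue). The share of all 10 members was 1.72 ± 0.115% in artery and 1.71 ± 0.144% in ventricle. Per kilobase of annotated exon, H19 stood at 3690 ± 164 in artery and 3990 ± 390 in ventricle, and no other member came near it. Cdkn1c followed with 368 ± 58.9 per kilobase in artery and 464 ± 78.4 in ventricle, then Dlk1 with 306 ± 44.9 in artery and 224 ± 27.7 in ventricle, and Mest with 246 ± 21.5 in artery and 250 ± 19.1 in ventricle. Grb10, Meg3, Plagl1, Peg3 and Ndn had mean levels per kilobase of 55.8 to 144 in artery and 55.2 to 138 in ventricle. Peg10 was the lowest member at 7.2 ± 1.61 in artery and 9.59 ± 1.71 in ventricle per kilobase. In the order of levels, the per-kilobase values of neighbours overlapped across libraries, except between H19 and Cdkn1c, Mest and Grb10, and Ndn and Peg10. The exon length is the union over annotated transcripts, so genes with many isoforms, such as Meg3, are set low on this scale.

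The network did not move as a block between the layers. Plagl1 and Dlk1 were higher in artery, Cdkn1c and Peg10 were lower, and the other 6 members did not pass the test. The 4 of 10 members past adjusted p 0.05 (limma, Benjamini-Hochberg) stand beside 24.5% of all tested genes. The 2 that rose stand beside 11.9% of genes that were higher in artery, and the 2 that fell beside 12.6% that were lower. Litters 1 and 4 were left out together, because artery 1 was the shallowest and artery 4 was nearest to ventricle in epicardial and smooth muscle sums. Artery 6, next in depth (7.97 M reads against 6.77 M in artery 1), was kept. In heart muscle sums artery 4 (8630) was farther from ventricle than artery 1 (12300). Without these litters Plagl1 (0.93, adjusted p = 0.000323), Dlk1 (0.55, adjusted p = 0.00511), Meg3 (0.6, adjusted p = 0.0393) and Peg10 (-0.4, adjusted p = 0.00421) passed and Cdkn1c did not (-0.31, adjusted p = 0.0648, limma). In that fit 5132 of 14779 tested genes passed, against 3619 in the main fit. Litter 4 was chosen for its likeness to ventricle, and artery 1 had the highest heart muscle sum of the artery libraries. Artery 1 was also the only artery library below its ventricle partner in Plagl1. Larger differences in that fit are therefore no independent support. Without the litter block 2 of 10 passed, Plagl1 and Dlk1, beside 24.1% of all genes in that fit. The median difference of the 10 was -0.07, against -0.04 over all tested genes. The libraries of both groups were fully separated for 1 of the 10, Dlk1, beside 11.9% of all tested genes (7.61% higher and 4.25% lower in artery).

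**Figure D1:**
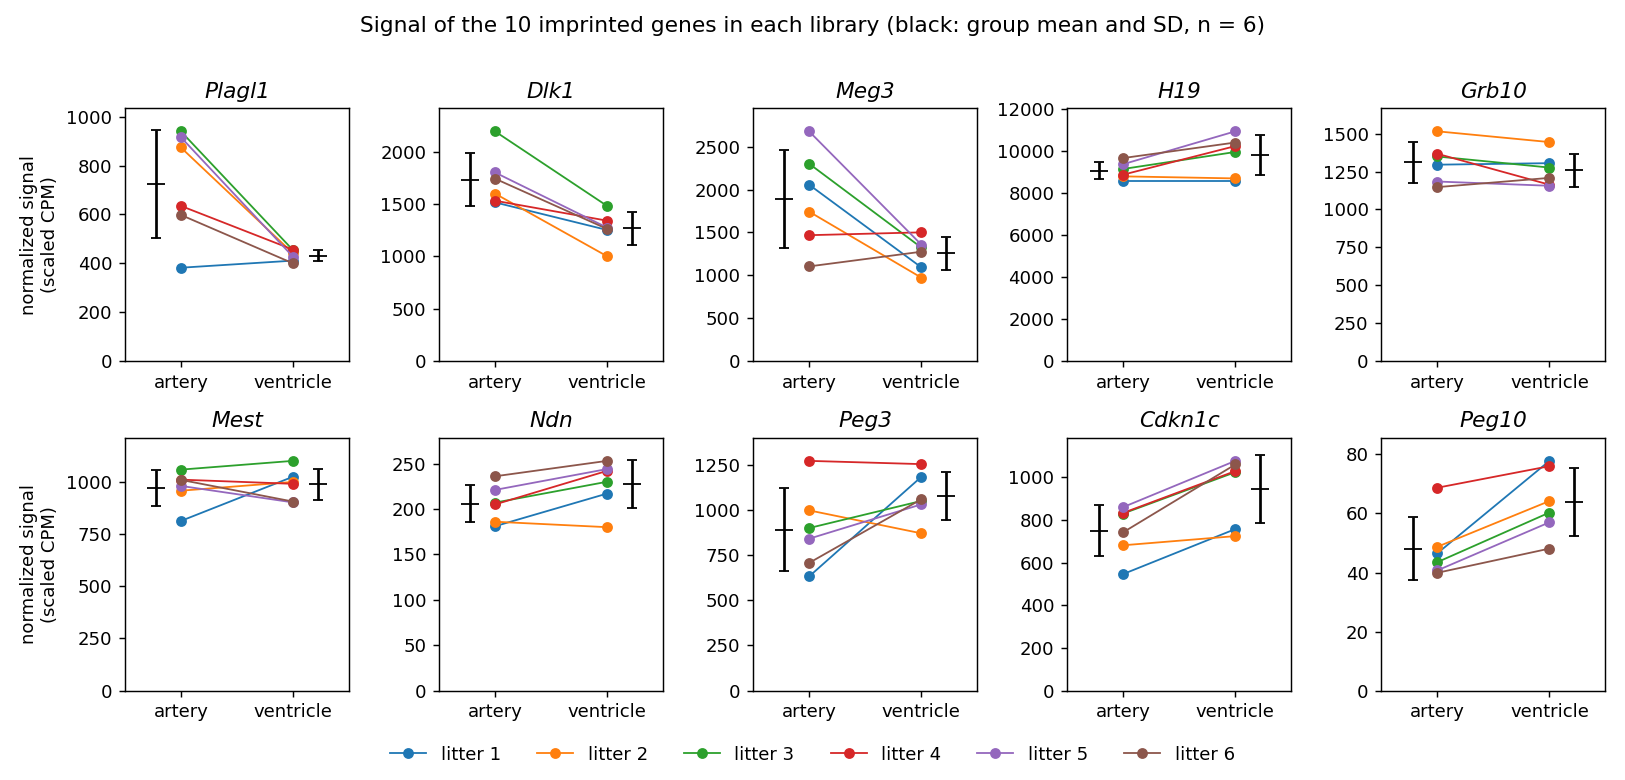
Normalized signal (scaled CPM, vertical axes from 0) of each gene in the artery and ventricle libraries, with lines joining the libraries of a litter and black bars giving the group mean and SD (n = 6). Plagl1 sits at 382 to 940 in artery and in a narrow band of 400 to 456 in ventricle, while Dlk1 is the gene whose groups do not overlap.

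Plagl1 (Zac1) encodes a zinc finger transcription factor that is expressed from the paternal copy and, in mice, regulates other imprinted genes. It lies at chr10:13060504-13131694 on the plus strand (GRCm38, GENCODE M21). Its signal was 382, 874, 940, 635, 916 and 598 in artery litters 1 to 6, and 411, 441, 454, 456, 427 and 400 in the ventricle libraries of the same litters. Artery 1 lay below its ventricle partner, the other 5 artery libraries lay above theirs, and the spread was far wider in artery. The means were 724 ± 222 in artery and 431 ± 23 in ventricle (SD over 6 litters). The difference was 0.68 ± 0.16 (SE, 1.6-fold, 95% interval 0.31 to 1.05, adjusted p = 0.0152 by limma). Litter 1 had artery in lane 1 and ventricle in lane 2, and litter 6 had artery in lane 4 and ventricle in lane 1. In these litters tissue and lane cannot be told apart. Lane 2 held both libraries of litters 2, 4 and 5, and there the blocked fit gave 0.85 (adjusted p = 0.0253). Lane 1 held artery 1 and 3 and ventricle 3 and 6, so its fit has no litter block and is not of the same form. It gave 0.49 (adjusted p = 0.568). The call was lost when litter 2, 3 or 5 was left out (adjusted p = 0.0538, 0.0578 and 0.0567, limma), and it was held with litter 1 left out (0.84, adjusted p = 0.00139).

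Dlk1 encodes a transmembrane protein with EGF-like repeats, related to Notch ligands, that is expressed from the paternal copy and marks many fetal progenitor and stromal cells. It lies at chr12:109452823-109463336 on the plus strand. Signal was 1517, 1601, 2196, 1533, 1803 and 1744 in artery litters 1 to 6, and 1253, 1002, 1483, 1342, 1276 and 1263 in ventricle. Every artery library lay above every ventricle library, and litter 3 was the highest in both tissues. The means were 1732 ± 254 in artery and 1270 ± 157 in ventricle (SD over 6 litters), with a difference of 0.45 ± 0.11 (SE, 1.36-fold, 95% interval 0.21 to 0.69, adjusted p = 0.0153, limma). All 6 litters showed it, from 0.19 in litter 4 to 0.67 in litter 2. The difference of Dlk1 was 0.46 in lane 2 and 0.41 in lane 1 without a block, neither past the threshold on so few libraries. The call was lost without litter 2, 3 or 5 (adjusted p = 0.0571, 0.0683 and 0.0541, limma) and under quantile normalization (0.31, adjusted p = 0.0763).

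Meg3, a long non-coding RNA read from the maternal copy of the same imprinted domain as Dlk1, had the second largest positive difference of the members and missed the threshold. It lies at chr12:109541001-109571726 on the plus strand. Signal was 2057, 1743, 2302, 1468, 2679 and 1104 in artery litters 1 to 6, against 1094, 974, 1325, 1501, 1359 and 1275 in ventricle. Litters 1, 2, 3 and 5 were higher in artery by 0.8 to 0.98, while litters 4 and 6 were lower by -0.03 and -0.21, so the groups overlapped. The difference was 0.55 ± 0.18 (SE, 95% interval 0.13 to 0.96, adjusted p = 0.0574, limma). It passed without litter 4 (0.66, adjusted p = 0.0339, limma) or without litter 6 (0.7, adjusted p = 0.0254), and with DESeq2 on the recovered reads (0.56, adjusted p = 0.0103).

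The rest of the Dlk1-Dio3 domain lay on the same side. Of its 4 tested neighbours 3 were higher in artery and 0 lower, with a median difference of 0.64, beside 11.9% of all tested genes called higher. The non-coding Mirg, read from the maternal copy, stood at 51.2 ± 15.5 in artery and 30.9 ± 5.16 in ventricle (0.67 ± 0.15, SE, adjusted p = 0.0122, limma). The retrotransposon-derived Rtl1, read from the paternal copy, stood at 25.8 ± 6.4 in artery and 16.4 ± 2.48 in ventricle (0.60 ± 0.14, adjusted p = 0.0158). Reads without strand marking do not separate Rtl1 from its maternal antisense RNA. Begain, at the edge of the domain, had 12.9 ± 3.68 in artery and 5.15 ± 1.59 in ventricle (1.16 ± 0.22, adjusted p = 0.00551). Rian, another maternal non-coding RNA, had 1298 ± 419 in artery and 905 ± 94.5 in ventricle and did not pass (0.47 ± 0.15, adjusted p = 0.0539). The call of Rtl1 was lost without litter 2, 3 or 5 (adjusted p = 0.057, 0.0568 and 0.0558). Dio3 was below the minimum for testing. The domain thus held genes of both parental copies with positive differences. Reads do not tell here which copy they came from.

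The start regions of the 3 members with the largest positive differences are shown because imprinting often involves methylation of CpG sites. Each line gives the 250 bases before a RefSeq transcript start (GRCm38.p6, plus strand), with CpG pairs in capitals.
Plagl1, chr10:13090582-13090831: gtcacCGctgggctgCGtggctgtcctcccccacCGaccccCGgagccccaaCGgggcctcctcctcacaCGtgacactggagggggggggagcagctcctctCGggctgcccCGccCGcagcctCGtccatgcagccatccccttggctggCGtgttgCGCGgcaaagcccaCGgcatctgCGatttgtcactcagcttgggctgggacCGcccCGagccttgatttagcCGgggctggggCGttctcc
Dlk1, chr12:109452573-109452822: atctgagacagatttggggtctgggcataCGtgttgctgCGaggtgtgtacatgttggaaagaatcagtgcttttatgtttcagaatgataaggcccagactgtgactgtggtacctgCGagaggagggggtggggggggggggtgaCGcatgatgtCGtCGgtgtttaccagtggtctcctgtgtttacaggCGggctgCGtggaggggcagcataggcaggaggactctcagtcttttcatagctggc
Meg3, chr12:109540746-109540995: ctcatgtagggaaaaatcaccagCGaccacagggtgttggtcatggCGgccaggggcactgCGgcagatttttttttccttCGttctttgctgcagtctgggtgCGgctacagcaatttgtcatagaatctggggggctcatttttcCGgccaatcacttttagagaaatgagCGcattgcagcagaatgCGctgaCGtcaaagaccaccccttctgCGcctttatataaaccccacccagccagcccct
Plagl1 held 19 CpG pairs in this window, Meg3 10 and Dlk1 8, against a median of 6 over 32851 windows of the same length. A second RefSeq start of Meg3, at chr12:109545148-109545397 and not shown, had 0 CpG pairs and 0 TGCCGC. The printed windows of Plagl1, Meg3 and Dlk1 had more CpG pairs than 80.3%, 62.2% and 57.0% of all windows. Windows not printed held 8 and 40 CpG pairs in Grb10, 7, 14 and 14 in Mest, 8 in Peg3 and 5 in Ndn. None of these members passed the test, so CpG number did not set apart the members higher in artery. The hexamer TGCCGC, which the imprint-protecting factor ZFP57 binds when methylated, was searched on both strands and occurred 1 time in each of the printed windows of Plagl1 and Meg3 and 0 times in that of Dlk1. It occurred in 8.68% of all windows. Mest had it 2 times in each of the overlapping windows with 14 CpG pairs, and the windows of Grb10, Peg3 and Ndn had 0. The Plagl1 start used here lies inside the annotated span of the gene. A match of letters is a description of the window and is no measure of binding or methylation, neither of which was measured. RefSeq windows were found for 7 of the 10 members, and H19, Cdkn1c and Peg10 were not matched.

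Cdkn1c encodes p57, a cyclin-dependent kinase inhibitor that restrains fetal growth and is read from the maternal copy. It lies at chr7:143458339-143461050 on the minus strand. Signal was 547, 682, 831, 834, 861 and 743 in artery litters 1 to 6, against 758, 725, 1025, 1030, 1078 and 1061 in ventricle. Every artery library lay below its own ventricle partner, although the groups overlapped, because litters 1 and 2 were low in both tissues. The means were 750 ± 120 in artery and 946 ± 160 in ventricle (SD over 6 litters), with a difference of -0.33 ± 0.10 (SE, 95% interval -0.55 to -0.11, adjusted p = 0.0352, limma). Without the litter block the same difference had adjusted p = 0.115 and was not called. With the block it stayed past the threshold in 1 of 6 omissions of a litter (without litter 2, adjusted p = 0.0485) and otherwise had adjusted p = 0.0502 to 0.108. Within lane 2 the difference of Cdkn1c was -0.24 (adjusted p = 0.365) and within lane 1, whose libraries are mostly unpaired and were fitted without the block, it was -0.63 (adjusted p = 0.286). An antisense gene, Gm44732, covers 30.65% of the exon bases of Cdkn1c, and reads without strand marking do not separate the pair.

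Peg10, a retrotransposon-derived gene that mouse placenta needs, is read from the paternal copy and lies at chr6:4747306-4760517 on the plus strand. Signal was 46.5, 48.7, 43.5, 68.7, 40.7 and 39.9 in artery litters 1 to 6, against 77.8, 64.2, 60.3, 76 and 57 in ventricle litters 1 to 5 and 48.1 in ventricle 6. All 6 litters were lower in artery, from -0.14 in litter 4 to -0.73 in litter 1, and the groups overlapped through artery 4 and ventricle 6. The means were 48 ± 10.7 in artery and 63.9 ± 11.4 in ventricle (SD over 6 litters). The difference was -0.41 ± 0.09 (SE, 95% interval -0.62 to -0.20, adjusted p = 0.012, limma). It stayed past the threshold in 6 of 6 omissions of a litter, with adjusted p = 0.00929 to 0.0488 (limma). The values without litter 2, 3 or 5 were near the limit (0.0387, 0.0488 and 0.0468). Without the litter block Peg10 had adjusted p = 0.054, and it passed in 2 of 12 omissions of a library. Within lane 2 the difference of Peg10 was -0.34 and within lane 1, without a block, it was -0.26, neither past the threshold. Sgce, which starts beside Peg10 on the other strand and is also paternal, had 85.6 ± 9.03 in artery and 73.4 ± 2.6 in ventricle (0.21 ± 0.08, adjusted p = 0.0956), the opposite sign. The other named neighbours, Pon2, Pon3, Ppp1r9a, Casd1 and Asb4, had differences of -0.19 to 0.19 and did not pass. Without litter 5 Asb4 was -0.06, and without litter 6 Pon2 was 0.12.

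**Figure D2:**
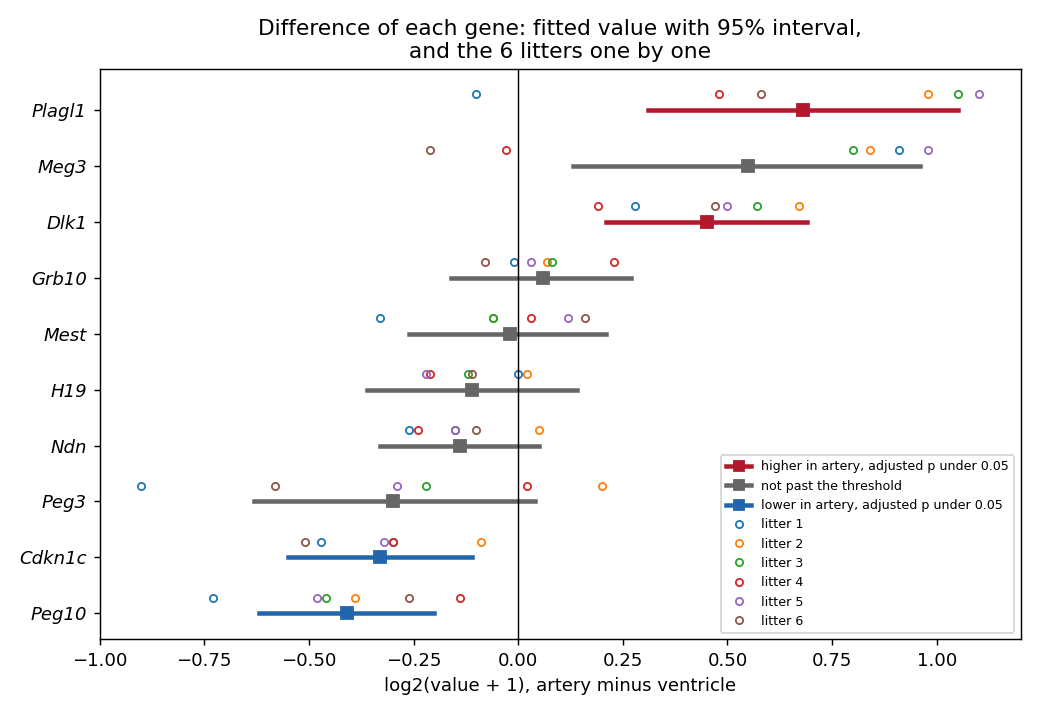
Fitted difference of each gene on the log2(value + 1) scale, artery minus ventricle, with its 95% interval (squares and bars) and the differences of the 6 litters above it (open circles). The intervals of Plagl1, Dlk1 and Meg3 lie above 0 and those of Cdkn1c and Peg10 below it, and Meg3 (adjusted p = 0.0574) has 2 litters on the negative side.

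Among the members that did not pass, H19 had the smallest artery SD relative to its mean. It lies at chr7:142575529-142578143 on the minus strand. Signal was 8584, 8801, 9153, 8882, 9381 and 9673 in artery litters 1 to 6, and 8584, 8703, 9963, 10243, 10947 and 10414 in ventricle. Litters 3 to 6 were lower in artery by -0.11 to -0.22 and litters 1 and 2 were level within 0.02. The difference was -0.11 ± 0.11 (SE, 95% interval -0.36 to 0.14, adjusted p = 0.521, limma). Igf2, the paternal growth factor gene that shares enhancers with H19, stood at 6859 ± 800 in artery and 6908 ± 554 in ventricle (-0.01 ± 0.11, 95% interval -0.27 to 0.24, adjusted p = 0.944). For both genes the interval leaves out a 1.36-fold difference upward such as that of Dlk1. That of H19 still holds a fall as large as that of Cdkn1c (-0.33). A p that misses the threshold does not show equal levels.

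Grb10 encodes an adaptor that dampens insulin and insulin-like growth factor receptor signalling and lies at chr11:11930508-12038683 on the minus strand. Its signal was 1295, 1515, 1349, 1367, 1184 and 1147 in artery litters 1 to 6, against 1305, 1444, 1276, 1163, 1156 and 1208 in ventricle. The groups overlapped throughout, with a difference of 0.06 ± 0.10 (SE, 95% interval -0.16 to 0.27, adjusted p = 0.707, limma), and it was -0.09 under quantile normalization.

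Mest encodes a protein of the hydrolase fold family, is paternal and is widely used as a mark of fetal mesoderm. It lies at chr6:30723547-30748465 on the plus strand. Signal was 813, 958, 1059, 1011, 981 and 1010 in artery litters 1 to 6, against 1025, 1000, 1101, 991, 902 and 906 in ventricle. The litters were divided, 3 higher and 3 lower in artery, and the difference was -0.02 ± 0.10 (SE, 95% interval -0.26 to 0.21, adjusted p = 0.886, limma), with 0.04 when litter 1 was left out. The opposite-strand gene Copg2 shares 912 of the 3945 exon bases of Mest. Copg2 had 57.2 ± 6.36 in artery and 67.5 ± 8.91 in ventricle (-0.23 ± 0.07, adjusted p = 0.0507).

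Ndn encodes necdin, a paternal growth suppressor of the MAGE family known from neurons, at chr7:62346569-62350262 on the plus strand. Its signal was 181, 186, 207, 205, 221 and 236 in artery litters 1 to 6, against 217, 180, 230, 242, 244 and 253 in ventricle. Litter 2 was higher in artery and the other 5 were lower, a difference of -0.14 ± 0.08 (SE, 95% interval -0.33 to 0.05, adjusted p = 0.253, limma).

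Peg3, a paternal zinc finger gene linked to maternal behaviour and growth in mice, lies at chr7:6703892-6730431 on the minus strand. Its signal was 632, 998, 900, 1272, 841 and 707 in artery litters 1 to 6, against 1183, 871, 1050, 1254, 1031 and 1059 in ventricle. Litters 1 and 6 were lower in artery by -0.9 and -0.58, litters 2 and 4 were not lower, and the difference was -0.30 ± 0.15 (SE, 95% interval -0.63 to 0.04, adjusted p = 0.186, limma). It was -0.18 without litter 1 (adjusted p = 0.338, limma), and -0.41 and past the threshold without artery 4 in the fit with no block (adjusted p = 0.0414). It was -0.03 within lane 2 and -0.48 within lane 1 without a block, neither past the threshold. Zim1, a maternal gene beside it, had 49.3 ± 15.6 in artery and 64.6 ± 13.6 in ventricle (-0.42 ± 0.15, adjusted p = 0.0698).

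Across the domains of all members, 40 further genes were listed, 36 were in the table and 32 were tested. Of these, 6 were higher and 2 lower in artery, with a median difference of 0.14, beside the 24.5% called among all tested genes. Of the 6 higher ones 3 were those of the Dlk1-Dio3 domain. Kcnq1, a potassium channel subunit gene near Cdkn1c, had 11.3 ± 5.41 in artery and 27.9 ± 9.31 in ventricle (-1.33 ± 0.25, SE, adjusted p = 0.00515, limma). Kcnq1ot1, the paternal antisense RNA within Kcnq1, had 43 ± 16.9 in artery and 39 ± 7 in ventricle (0.04 ± 0.23, adjusted p = 0.911), and reads do not separate this pair by strand. Osbpl5, further along that domain, was higher (0.35 ± 0.09, adjusted p = 0.022), a call lost without litter 2, 3 or 5. The remaining 2 higher genes, Klf14 beside Mest (0.79 ± 0.21, adjusted p = 0.025) and Magel2 beside Ndn (0.55 ± 0.17, adjusted p = 0.0392), had low signal and are named after their values were seen. Cd81, Nap1l4, Tssc4 and Dhcr7 of the Cdkn1c domain had differences of -0.27 to 0.15 and did not pass. Ddc, which encodes aromatic amino acid decarboxylase and is imprinted in the fetal mouse heart, had 18.6 ± 6.01 in artery and 49.5 ± 16.9 in ventricle (-1.38 ± 0.20, adjusted p = 0.00125). It lies beside Grb10, and its groups did not overlap. Cobl on the far side of Grb10 (-0.14), Phactr2 beside Plagl1 (0.19), and Snrpn (0.16), Ube3a (-0.74) and Peg12 (-0.05) near Ndn did not pass. The value of Ube3a rests on artery 1, at 2.83 against 34.7 to 51.8 in the other artery libraries, and was -0.1 without litter 1. Phactr2 was 0.29 without litter 1 (adjusted p = 0.0567), and Snrpn was 0.08 without litter 6. Heart muscle and epicardial markers were lower in artery in the same libraries, and their part in the values of Kcnq1 and Ddc was not tested. Without litters 1 and 4 the differences were -1.65 for Kcnq1 and -1.64 for Ddc.

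**Figure D3:**
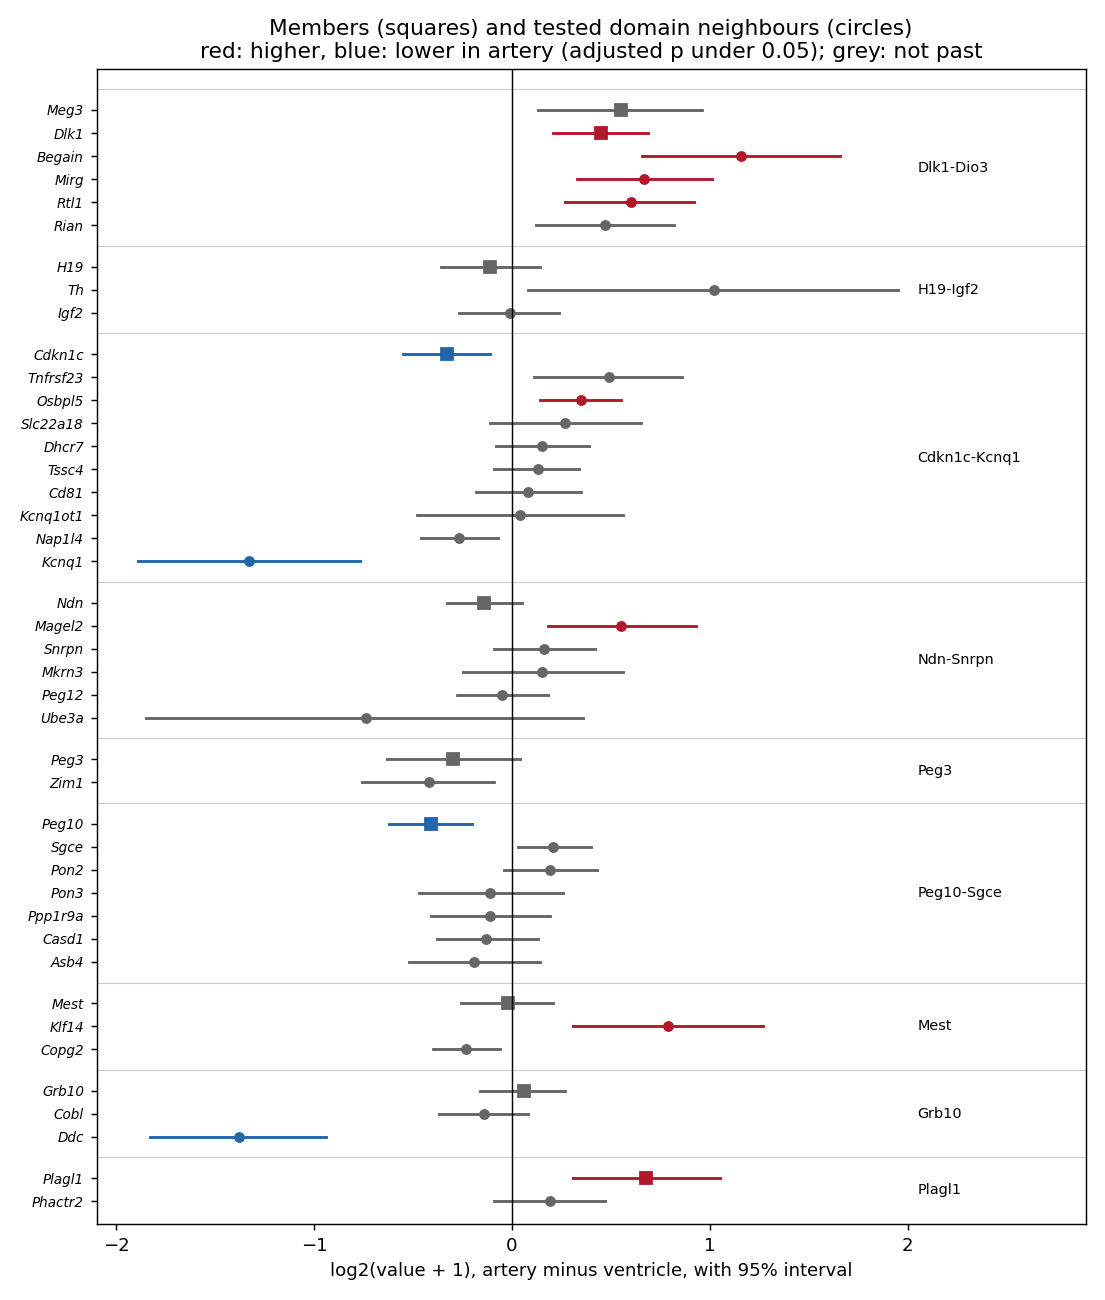
Differences (log2(value + 1), artery minus ventricle) with 95% intervals for the 10 members (squares) and their 32 tested domain neighbours (circles), grouped by imprinted domain. In the Dlk1-Dio3 domain all 6 points lie above 0 and 4 are past the threshold. In the Cdkn1c domain 7 of the 9 neighbours lie above 0 and Cdkn1c lies below 0. Of these neighbours only 1 is called higher and 1 lower.

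Variation within a tissue followed the litter for several members. Litters 1 and 2 gave the 2 lowest libraries of H19, Cdkn1c and Ndn in both artery and ventricle. Ndn was 181 and 186 in artery litters 1 and 2 and 205 to 236 in the other artery libraries, and 217 and 180 in ventricle litters 1 and 2 and 230 to 253 in the other ventricle libraries. Grb10 was highest in litter 2 in both tissues, at 1515 in artery and 1444 in ventricle. With the group means removed, H19 and Ndn had a Pearson r of 0.83 over the 12 libraries, H19 and Cdkn1c 0.81, and Ndn and Cdkn1c 0.79. Grb10 had the opposite sign to Ndn (r = -0.84) and to H19 (r = -0.73). Dlk1 and Meg3, from the same domain, had r = 0.47, and Peg3 and Peg10 r = 0.65. Over all 45 pairs the median r was 0.19, and 8 pairs were above 0.5 and 3 below -0.5. These correlations describe 12 libraries that share depth, litter and cell makeup, and artery 1, the shallowest, has the lowest artery value of H19, Dlk1, Cdkn1c, Peg3, Plagl1, Mest and Ndn.

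**Figure D4:**
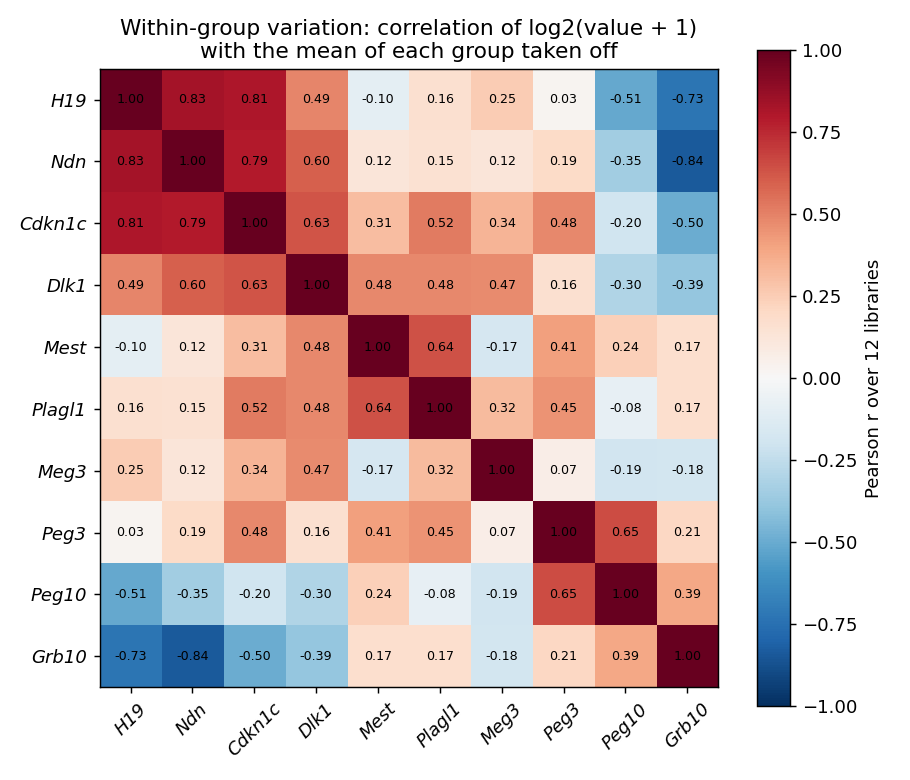
Pearson r between the members over the 12 libraries, computed on log2(value + 1) with each group's mean removed (colour scale from -1 to 1). H19, Ndn and Cdkn1c form a block with r of 0.79 to 0.83, and Grb10 is negative with all 3.

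By the same measure, and picked from all genes with a mean signal of at least 5, the 3 nearest genes were Rnf181, Btg2 and E2f5 for H19 (r = 0.84 to 0.894), Wnt11, Gabra3 and Cnpy4 for Dlk1 (0.881 to 0.936), and Gabbr1, Six5 and Nlgn2 for Meg3 (0.945 to 0.959). For Plagl1 they were Tex9, Luc7l2 and Slc25a36 (0.948 to 0.955), for Cdkn1c Ssbp3, Slc10a6 and Irf1 (0.927 to 0.937), and for Peg10 Lpgat1, Zfp334 and Zfp592 (0.91 to 0.964). The genes nearest to Grb10 were Mttp, Insr and Med1 (0.942 to 0.962), to Peg3 Uhmk1, Flrt2 and Secisbp2l (0.966 to 0.976), to Mest Bend5, Ccne2 and Msmo1 (0.862 to 0.887), and to Ndn Il3ra, Leprot and Abcb1b (0.898 to 0.919). None of them was a member. A search over so many genes gives high values by its size, and these describe the 12 libraries only.

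Of 28 imprinted genes of other domains, 23 were tested, 3 were higher and 2 lower in artery, beside 24.5% called among all tested genes. Their median difference was -0.04, as over all tested genes. Qpct, a glutaminyl cyclase gene, had 53.9 ± 16.7 in artery and 20.7 ± 3.1 in ventricle (1.29 ± 0.19, SE, adjusted p = 0.00172, limma). Nnat, the membrane proteolipid neuronatin, had 90.2 ± 23.6 in artery and 55.7 ± 10.5 in ventricle (0.66 ± 0.14, adjusted p = 0.00933). Airn, the antisense RNA of the Igf2r gene, had 34.5 ± 3.07 in artery and 27.4 ± 4.28 in ventricle (0.33 ± 0.08, adjusted p = 0.0193), a call lost without litter 3 or 5. The span of Airn overlaps that of Igf2r, which had 811 ± 180 in artery and 849 ± 172 in ventricle. Reads do not separate this pair by strand. Zdbf2 was lower, with 46.7 ± 33.8 in artery and 117 ± 19.7 in ventricle (-1.51 ± 0.24, adjusted p = 0.00254), and so was Jade1, with 28.4 ± 11 in artery and 53.6 ± 6.65 in ventricle (-0.97 ± 0.21, adjusted p = 0.0107). Jade1 and Qpct are known as imprinted in mouse placenta.

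Genes of the growth route on which members act went both ways. Of 41 listed, 39 were tested, 8 were higher and 5 lower in artery, with a median difference of -0.08, beside 24.5% called among all genes. Igf1 had 226 ± 78.9 in artery and 85.8 ± 13.1 in ventricle (1.31 ± 0.24, SE, adjusted p = 0.0048, limma), a contrast to Igf2, whose difference was -0.01. The binding proteins Igfbp4, with 1035 ± 125 in artery and 569 ± 77.5 in ventricle (0.86 ± 0.11, adjusted p = 0.000607), and Igfbp7, with 235 ± 50.7 in artery and 134 ± 22 in ventricle (0.80 ± 0.10, adjusted p = 0.00055), were higher. Igfbp6 was lower (-0.48 ± 0.12, adjusted p = 0.0153, and 0.086 without the litter block). The cyclins Ccnd1, with 69.2 ± 14.4 in artery and 104 ± 10.2 in ventricle (-0.60 ± 0.11, adjusted p = 0.00556), and Ccna2, with 61.6 ± 15.9 in artery and 102 ± 21.2 in ventricle (-0.75 ± 0.16, adjusted p = 0.00827), were lower.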

How the data were processed

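Per the labels' protocols, 12 pools gave polyA libraries sequenced as single reads of 50 bases, with no strand marking stated. Tools named in the submitters' processing notes are RSEM 1.2.3, cutadapt 1.3 and CASAVA 1.8.2, with the build GRCm38. No source used here gives the normalization tool. Judged from its values, the deposited signal is CPM computed on whole reads plus 0.5 with scaled library sizes: 100% of 211644 values were whole reads within 0.02. All 12 columns were used.

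Genes with a mean signal of at least 1 (14779) were tested with limma 3.58.1 (R 4.3.3, trended robust prior) on log2(value + 1), with the litter as a block, two-sided, with Benjamini-Hochberg adjustment and a threshold of 0.05. The pseudocount of 1 slightly shrinks differences of low genes. edgeR 4.0.16 and DESeq2 1.42.0 were run on the recovered reads and called 3516 and 4108 genes. The procedure was also run on simulated data with the same spread built into every library, so the wider spread among artery libraries was not covered.

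The labels say that both pools of a number came from 1 litter. The mean correlation of deviations from the group means was 0.215 for libraries of 1 litter and -0.043 for those of different litters. Values for libraries of 1 litter ran from -0.014 to 0.396. Of the artery libraries, 3 of 6 correlated best with the ventricle library of their own litter. Litters are separate pools, and the number of embryos per pool is not given in the sources used here, so the spread behind each p-value is that between pools.

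Named genes were the 10 members, up to 3 genes per direction with the smallest p in each other list, domain neighbours with a mean of at least 10, and the 3 nearest genes of each member. Klf14 and Magel2 fall outside this rule and complete a count. Exons came from GENCODE M21 (GRCm38) and promoter windows from RefSeq (GRCm38.p6). Lanes were read from library descriptions and may belong to different flow cells. Members and lists were chosen with earlier results of these data known.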

Additional observations from a re-analysis of the deposited data

Results flagged for a closer look

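Peg10 in artery 4 was 68.7, apart from the other 5 artery libraries at 39.9 to 48.7, and nearer to the ventricle libraries. The gap to the nearest of the others was 0.694 of the whole artery range, above Dixon's 95% critical value for 6 samples. Chance flags about 1 in 20 groups, and 20 groups (10 genes in each tissue) were looked at. In artery 4 the summed epicardial and mesothelial markers were 3450, against 1700 to 2230 in the other artery libraries, and the smooth muscle sum was 2010, against 2530 to 3810. Their part in the value of Peg10 was not tested. Without litter 4 the difference of Peg10 was -0.47 (adjusted p = 0.0101, limma).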

How the results depend on the processing

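The count of members past the threshold was 4, and it was 2 without the replicate block, 3 under quantile normalization and 5 with DESeq2. It ran from 1 to 4 with a litter left out and from 2 to 5 with a library left out and no block. It was 4 without litters 1 and 4, 1 in lane 2 and 0 in lane 1 (limma, 1 of 10 at an unadjusted p under 0.05). Of all genes, 3619 passed, 3556 without the block and 5132 without litters 1 and 4. The count was 2195 to 4475 with a litter left out and 2783 to 4291 with a library left out. It was 1760 in lane 2 and 320 in lane 1. Domain neighbours past the threshold were 8, against 14 with DESeq2, 13 without litters 1 and 4, 4 to 11 with a litter left out, 8 to 12 with a library left out, 3 in lane 2 and 0 in lane 1 (limma, 5 of 32 unadjusted). Other imprinted genes were 5, against 8 without litters 1 and 4, 4 to 6 and 4 to 7 in the omissions, 2 in lane 2 and 1 in lane 1. Growth genes were 13, against 7 to 14 and 8 to 12 in the omissions, 6 in lane 2 and 0 in lane 1 (limma, 7 of 39 unadjusted). Lanes hold fewer libraries.

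Among the 47 genes recomputed under the alternatives, the 12 whose sign turned were not past the threshold. Mest was 0.04 without litter 1 or without litters 1 and 4, 0.03 in lane 2 and -0.06 to 0.04 with a litter left out, with 0.03 without artery 1 and 0.01 without ventricle 3 in the fit without the block. Grb10 was -0.09 under quantile normalization. Igf2 was 0 with edgeR and in lane 1, 0.02 in lane 2, -0.05 to 0.02 with a litter left out, and 0 to 0.01 without artery 2, 5 or 6 or ventricle 4 or 5 in the fit without the block. Kcnq1ot1 was -0.09 in lane 1, -0.1 to 0.28 with a litter left out, and, without the block, -0.04, -0.01, -0.05 and -0.07 without artery 2, 3, 4 and 5 and -0.04 without ventricle 3. Cd81 was -0.07 without litters 1 and 4, -0.01 in lane 2 and without artery 1, and -0.01 to 0.13 with a litter left out. Pon3 was 0.02 without litters 1 and 4, 0.14 in lane 2, 0.04 without artery 1 and -0.18 to 0.07 with a litter left out. In lane 2 Casd1 was 0.03 and Ppp1r9a 0.2. In lane 1 Asb4 was 0.11, Peg12 0.09, Phactr2 -0.04 and Snrpn -0.03. The cause of these changes was not tested. Of 1410 values recomputed for 47 genes, 1237 kept direction and call, 95 lost the call, 37 gained it and 41 turned sign. Members had at least 304 reads in each library, and the part of depth was not tested.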

Other observations

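Ratios between neighbouring genes within a library do not depend on how libraries are scaled, and 12 were computed after the values had been seen, as a description with no test. The groups overlapped in all 12. Peg10 over Sgce, which start side by side, had a log2 ratio of -0.85 ± 0.4 in artery and -0.22 ± 0.27 in ventricle (SD over 6 litters) and was lower in artery in 6 of 6 litters. Plagl1 over Phactr2 was 2.25 ± 0.24 in artery and 1.76 ± 0.14 in ventricle, higher in artery in 6 of 6 litters, litter 1 included. Ndn over Snrpn was 3.29 ± 0.26 in artery and 3.6 ± 0.34 in ventricle, lower in artery in 6 of 6 litters. The other ratios were divided among litters. Cdkn1c over Kcnq1ot1 was 4.23 ± 0.52 in artery and 4.6 ± 0.37 in ventricle (2 litters higher, 4 lower), and Zim1 over Peg3 was -4.2 ± 0.31 in artery and -4.07 ± 0.17 in ventricle (2 higher, 4 lower). Mest over Copg2 was 4.09 ± 0.19 in artery and 3.88 ± 0.19 in ventricle (5 higher), and Grb10 over Cobl was 5.42 ± 0.21 in artery and 5.22 ± 0.22 in ventricle (5 higher). Mirg over Meg3 was -5.21 ± 0.2 in artery and -5.35 ± 0.12 in ventricle (4 higher), and Rtl1 over Dlk1 was -6.09 ± 0.24 in artery and -6.28 ± 0.22 in ventricle (5 higher).

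H19 over Igf2 had a log2 ratio of 0.41 ± 0.21 in artery and 0.5 ± 0.11 in ventricle, a shift of -0.09 against a pooled spread of 0.16. Meg3 over Dlk1, the maternal over the paternal RNA of their domain, was 0.08 ± 0.43 in artery and -0.02 ± 0.14 in ventricle, and it ran from -0.66 to 0.57 among artery libraries and from -0.2 to 0.16 among ventricle libraries. Rian over Meg3 ran from -1.02 to 0.02 in artery and from -0.58 to -0.35 in ventricle. Artery libraries also differed more in depth than ventricle libraries, and the part of depth in these ranges was not tested.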
